A study of Canis lupus familiaris with 24 samples.

Results

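Secreted and membrane proteins are folded in the endoplasmic reticulum (ER) and leave it in vesicles, and 46 genes of this route were followed in the dog kidney epithelial line MDCK with and without TGFb, alongside the mRNAs of extracellular matrix genes. The 46 symbols were listed by role: chaperones, co-chaperones, disulfide isomerases, collagen folding factors, stress sensors with their transcription factors, ER-associated degradation, the translocon, the COPII coat, and cargo receptors with retrieval receptors. Of these, 41 carried a symbol in the count table of 32704 genes, and all 41 passed the filter on low counts that left 12466 genes to test. PDIA3, PDIA6, FKBP14, XBP1 and SAR1A had no symbol match and were not analysed here.

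New secretory proteins enter the ER through the Sec61 translocon, are folded by chaperones such as BiP (HSPA5) and cross-linked by disulfide isomerases, while collagens also need the chaperone HSP47 (SERPINH1), prolyl isomerases and the prolyl 3-hydroxylation complex. Unfolded protein activates the sensors IRE1 (ERN1), ATF6 and PERK, and the resulting unfolded protein response raises chaperone and degradation genes. Folded cargo is packed at ER exit sites by the COPII coat, in which SEC23 and SEC24 form the inner layer that binds cargo and SEC13 and SEC31 form the outer cage. KDEL receptors return escaped ER residents from the Golgi.

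RNA came from 8 groups of 3 stranded mRNA libraries each. For each of the sublines MDCK-II and MDCK-NBL2 there was an untreated group at day 0, another at day 4, and a TGFb-treated group at day 4. In MDCK-NBL2, TGFb was also given to cells transfected with control siRNA (siCTR) or with siRNA that targets the transcription factor PRRX1 (siPRRX1), both taken at day 4. The labels class treated MDCK-II and siPRRX1 cells as partial epithelial-mesenchymal transition (EMT), treated MDCK-NBL2 cells as full EMT, and untreated cells as epithelial. Replicates are numbered in the labels, with no word on whether each was its own culture, and the p-values therefore reflect variation among these libraries, which may be technical. In bulk RNA, fewer cells of a type and less RNA per cell cannot be told apart.

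Library totals lay between 6134929 and 27567296 counts. Library numbers fell into the series AL26 and AL58, whose meaning the labels do not give. AL58 held replicate 1 of MDCK-NBL2 with TGFb alone and replicates 2 and 3 of siCTR and siPRRX1. AL26 held all other libraries, so the untreated MDCK-NBL2 and all MDCK-II libraries were of AL26. Replicate 2 of the untreated day 4 MDCK-NBL2 group stood apart from its group. On the first principal component, which held 59.4% of the variance, it lay at 59.3, its group's other libraries lay at -4.85 and -20.0, and TGFb-treated MDCK-NBL2 cells without siRNA spanned 84.1 to 98.7. Results that rest on it are given with and without it. Epithelial markers other than CDH16 were present in every group, with CDH1 means of 852 to 1364 CPM. CPM are counts per 1000000 on TMM-scaled library sizes, the unit of every level below. CDH16 had no count in the TGFb-treated MDCK-NBL2 groups. In MDCK-NBL2 at day 4 the 9 epithelial markers summed to 4496 to 7915 CPM untreated and to 3519 to 3946 CPM with TGFb. Those groups did not overlap. KRT19 was the largest part of these sums, with means of 3476 CPM untreated and 1903 CPM with TGFb. TJP1 alone had a higher mean with TGFb, at 192 to 296 CPM untreated and 302 to 321 CPM treated. KRT8 and KRT18 were also planned as markers but are not among the 9. In MDCK-II the epithelial sums were 3550 to 4827 CPM and 3587 to 4992 CPM, with overlap. CD3E of T cells and DPT of fibroblasts had no count in any library, and PTPRC of leukocytes and PECAM1 of endothelium had at most 7 counts in any group. Other genes of these marker lists were present. The 5 endothelial markers, nearly all FLT1, summed to 90.4 to 152 CPM in untreated MDCK-II at day 4 and to 315 to 404 CPM with TGFb, and in MDCK-NBL2 to 103 to 205 CPM and 348 to 424 CPM, without overlap in either line. The 5 fibroblast markers, mostly PDGFRA, summed to 0.808 to 7.42 CPM and 13.3 to 47.9 CPM in MDCK-II, without overlap, and to 2.52 to 29.2 CPM and 9.62 to 22.8 CPM in MDCK-NBL2, with overlap. The 6 leukocyte markers summed to at most 11.3 CPM in any library. The 5 plasma cell markers, a cell type with much ER, summed to 1148 to 2879 CPM in untreated MDCK-NBL2 at day 4 and to 3146 to 4122 CPM with TGFb, nearly all of it SDC1, which epithelia also express. In MDCK-II they summed to 351 to 440 CPM untreated and to 896 to 1065 CPM with TGFb. The part of these markers in the results was not tested.

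The matrix list gained far more than the 41 genes together. A list of 91 collagens, matrix glycoproteins and matrix enzymes summed to 8586 to 11221 CPM in untreated MDCK-II at day 4 and to 31270 to 48599 CPM with TGFb. In MDCK-NBL2 the matrix sum was 14397, 66614 and 12378 CPM in untreated replicates 1, 2 and 3, against 90243 to 124810 CPM with TGFb. The ER folding and export genes summed to 8242, 9194 and 9638 CPM in untreated MDCK-II and to 10112, 11161 and 11554 CPM with TGFb. In MDCK-NBL2 they summed to 7743, 10657 and 8923 CPM untreated and to 12500, 12298 and 12408 CPM with TGFb. On this scale the treated sums lay above the untreated ones in both lines, without overlap. A ratio of counts within a library needs no scaling between libraries: per count of the 41 genes there were 1.04, 1.22 and 1.04 matrix counts in untreated MDCK-II and 3.09, 4.35 and 3.51 with TGFb. In MDCK-NBL2 there were 1.86, 6.25 and 1.39 matrix counts untreated and 9.99, 9.26 and 7.27 with TGFb, so replicate 2 of the untreated group lay near the treated libraries.

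The sums depend on scaling. Matrix genes took 8.08% to 10.6% of all counts in treated MDCK-NBL2, against 1.95% to 2.34% at day 0. On plain library totals, the 41 genes summed to 10621 to 11104 CPM in treated MDCK-NBL2 and to 11008 to 12568 CPM at day 0, so the treated libraries were then no longer above day 0. They stayed above untreated day 4. The 41 genes held 0.804%, 1.046% and 0.970% of all counts in untreated MDCK-NBL2 and 1.062%, 1.073% and 1.110% with TGFb. Untreated replicate 2 lay closest to the treated libraries. On the same totals the MDCK-II sums overlapped, with 9336 to 10413 CPM untreated at day 4 and 10339 to 11517 CPM with TGFb. Without TMM scaling, the median log2 change of all genes shifted by -0.14 for TGFb in MDCK-II, by -0.24 for TGFb in MDCK-NBL2 and by -0.35 for treated MDCK-NBL2 against day 0. The changes below are relative to TMM scaling.

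**Figure D1:**
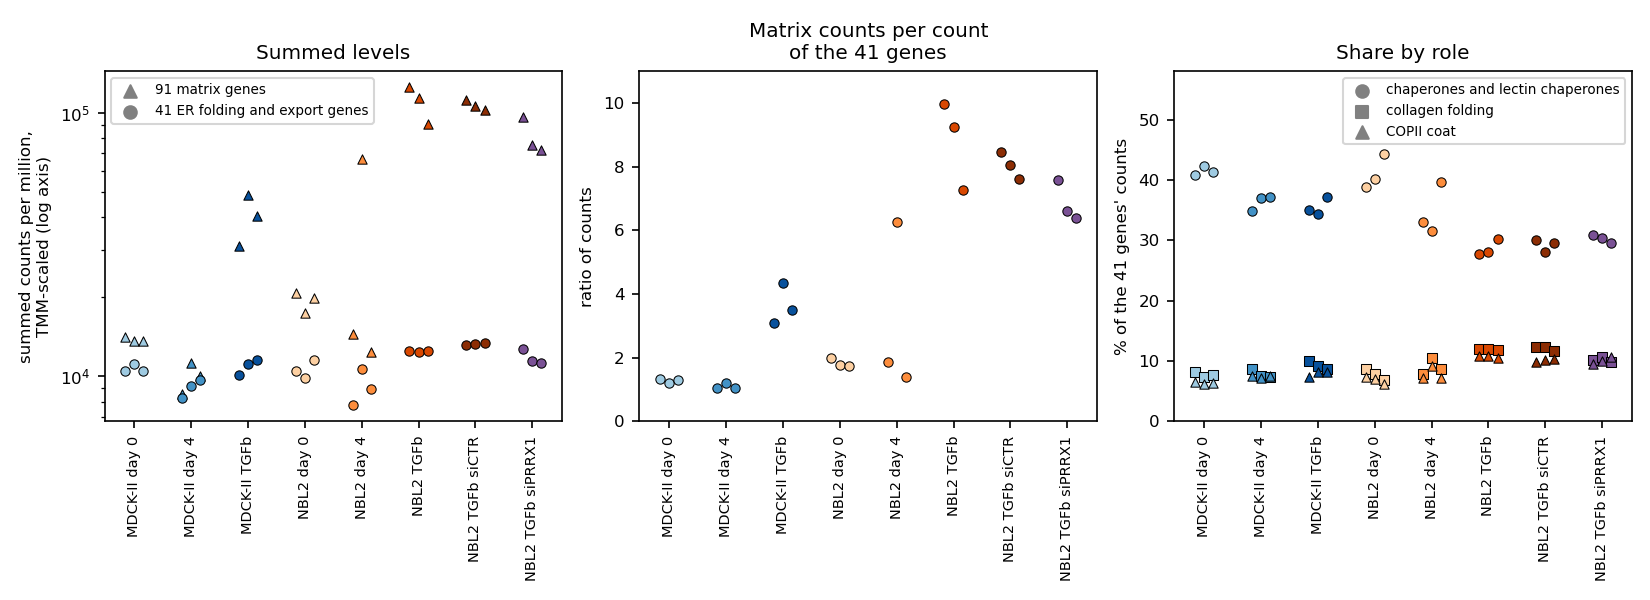
Left, summed CPM (TMM-scaled, log axis) of 91 matrix genes (triangles) and of the 41 ER folding and export genes (circles) in each of 24 libraries, replicates 1 to 3 from left to right in each of 8 groups; middle, matrix counts per count of the 41 genes, from 1.04 in untreated MDCK-II to 9.99 in treated MDCK-NBL2; right, percent of the 41 genes' counts held by 3 roles. The matrix sums with TGFb, 31270 CPM or more, stand above the untreated ones except 66614 CPM in untreated MDCK-NBL2 day 4 replicate 2, while the 41 genes stay between 7743 and 13397 CPM.

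The mix of roles differed between groups. Chaperones and lectin chaperones held 33.0%, 31.5% and 39.6% of the 41 genes' counts in untreated MDCK-NBL2 at day 4 and 27.7% to 30.3% with TGFb. Collagen folding factors went the other way, with 7.80%, 10.5% and 8.61% untreated and 12.0%, 12.0% and 11.9% with TGFb. The COPII coat held 7.10%, 9.15% and 7.24% untreated and 10.7%, 10.9% and 10.4% with TGFb. These shares did not overlap between the 2 groups, and they need no scaling between libraries. In MDCK-II the chaperone share was 34.9%, 36.9% and 37.1% untreated and 35.0%, 34.4% and 37.1% with TGFb, so the groups overlapped. Collagen folding factors held 8.72%, 7.49% and 7.38% untreated and 9.94%, 9.21% and 8.74% with TGFb in MDCK-II, without overlap. Disulfide isomerases held 13.5% to 14.3% untreated and 14.7% to 15.4% with TGFb there, also without overlap. Longer transcripts weigh more in such shares, so they compare libraries and not genes.

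TGFb in MDCK-II, the partial EMT comparison, raised 12 of the 41 genes and lowered none, at an adjusted p under 0.05. Over all 12466 genes 21.1% were called in either direction, 11.8% higher and 9.27% lower. The median log2 change was 0.34 over the 41 genes and -0.03 over all genes. By role, 1 of 5 chaperones rose, none of 5 co-chaperones, 2 of 3 isomerases, 2 of 6 collagen folding factors, 2 of 4 stress sensors and transcription factors, 1 of 3 degradation genes, 1 of 4 translocon genes, 2 of 7 coat genes and 1 of 4 receptors.

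PDIA5, a disulfide isomerase, was at 42.2, 24.1 and 29.5 CPM in untreated MDCK-II and at 116, 116 and 107 CPM with TGFb. The treated libraries were all above the untreated ones, and the log2 change was 1.83 ± 0.33 (SE; edgeR adjusted p = 0.000993). FKBP10, a prolyl isomerase of the ER that acts on procollagen, was at 222, 222 and 216 CPM untreated and at 385, 387 and 380 CPM with TGFb. Its 3 libraries lay close together in each group, and the change was 0.80 ± 0.16 (adjusted p = 0.00182, edgeR). CRTAP, the scaffold of the prolyl 3-hydroxylation complex, was at 33.5, 33.8 and 32.0 CPM untreated and at 42.8, 49.8 and 49.8 CPM with TGFb. That is a small change, 0.52 ± 0.10, without overlap (adjusted p = 0.00182, edgeR). EDEM1, which directs misfolded glycoproteins to degradation, was at 181, 145 and 153 CPM untreated and at 286, 264 and 299 CPM with TGFb. Its groups did not overlap, with a change of 0.83 ± 0.16 (adjusted p = 0.0019, edgeR).

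Among the transcription factors, ATF6 was at 52.1, 50.4 and 58.5 CPM in untreated MDCK-II and at 74.3, 74.4 and 96.1 CPM with TGFb, a log2 change of 0.60 ± 0.13 (edgeR adjusted p = 0.00426). CREB3L2, a membrane-bound factor known in mouse cartilage for raising SEC23A, was at 38.1, 53.3 and 60.1 CPM untreated and at 96.9, 123 and 108 CPM with TGFb. In both genes every treated library was above every untreated one, and CREB3L2 changed by 1.11 ± 0.27 (adjusted p = 0.0075, edgeR). CREB3L1, a related factor that activates collagen genes in mouse bone, was at 151, 126 and 132 CPM untreated and at 92.6, 177 and 139 CPM with TGFb. Those groups overlapped and the change of 0.00 ± 0.41 was not called (edgeR adjusted p = 1).

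Of the remaining called genes of MDCK-II, all but SEC24A had groups that did not overlap. The share of all genes with such groups is not given here. These genes were already chosen by adjusted p, so the separation is not read as added support. They had log2 changes of 0.48 to 0.91: PDIA4, another isomerase, by 0.50, the retrieval receptor KDELR3 by 0.91, the lectin chaperone CALR by 0.69, the translocon subunit SEC61B by 0.60, the outer coat subunit SEC31A by 0.61 and the inner coat subunit SEC24A by 0.48. HSPA5, the central chaperone and the usual read-out of ER stress, was at 702, 786 and 913 CPM untreated and at 765, 734 and 874 CPM with TGFb, and was described here after its values were seen. Its groups overlapped, with a change of -0.02 ± 0.16 (adjusted p = 0.963, edgeR).

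Single libraries decided 5 of the 12 calls. Without treated MDCK-II replicate 2, 7 genes were called, against 9.99% of all genes: ATF6, CREB3L2, CRTAP, EDEM1, FKBP10, PDIA4 and PDIA5, which also kept their calls with any other library of the groups left out. Without that library KDELR3 had an adjusted p of 0.0581, SEC61B of 0.0651 and SEC31A of 0.0682. CALR had 0.09 without it and 0.0617 to 0.0787 without untreated replicate 2 or 3 or treated replicate 3. SEC24A lost its call without any 1 of 5 libraries of these groups or without MDCK-NBL2 day 0 replicate 1, at 0.0521 to 0.203, and with no TMM scaling. SEC61B also lost it without untreated replicate 1, at 0.0603, and SEC31A without untreated replicate 2, at 0.0722, or treated replicate 3, at 0.0595. Without untreated MDCK-NBL2 day 4 replicate 2, which is in neither group, 15 genes were called. SERPINH1 was then added by 0.55, PPIB by 0.35 and SEC23A by 0.34 (edgeR adjusted p of 0.00372, 0.0143 and 0.0229). The share of all genes called in that fit is not given here. Same-numbered MDCK-II libraries deviated together, and with the replicate number as a block in a fit of these 2 groups, 19 genes rose and none fell, against 28.4% of all genes called, 15.7% higher and 12.7% lower. The added calls included SERPINH1 at 0.57 ± 0.10 (edgeR adjusted p = 0.0114) and SEC24D at 0.44 ± 0.09 (edgeR adjusted p = 0.0147).

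**Figure D2:**
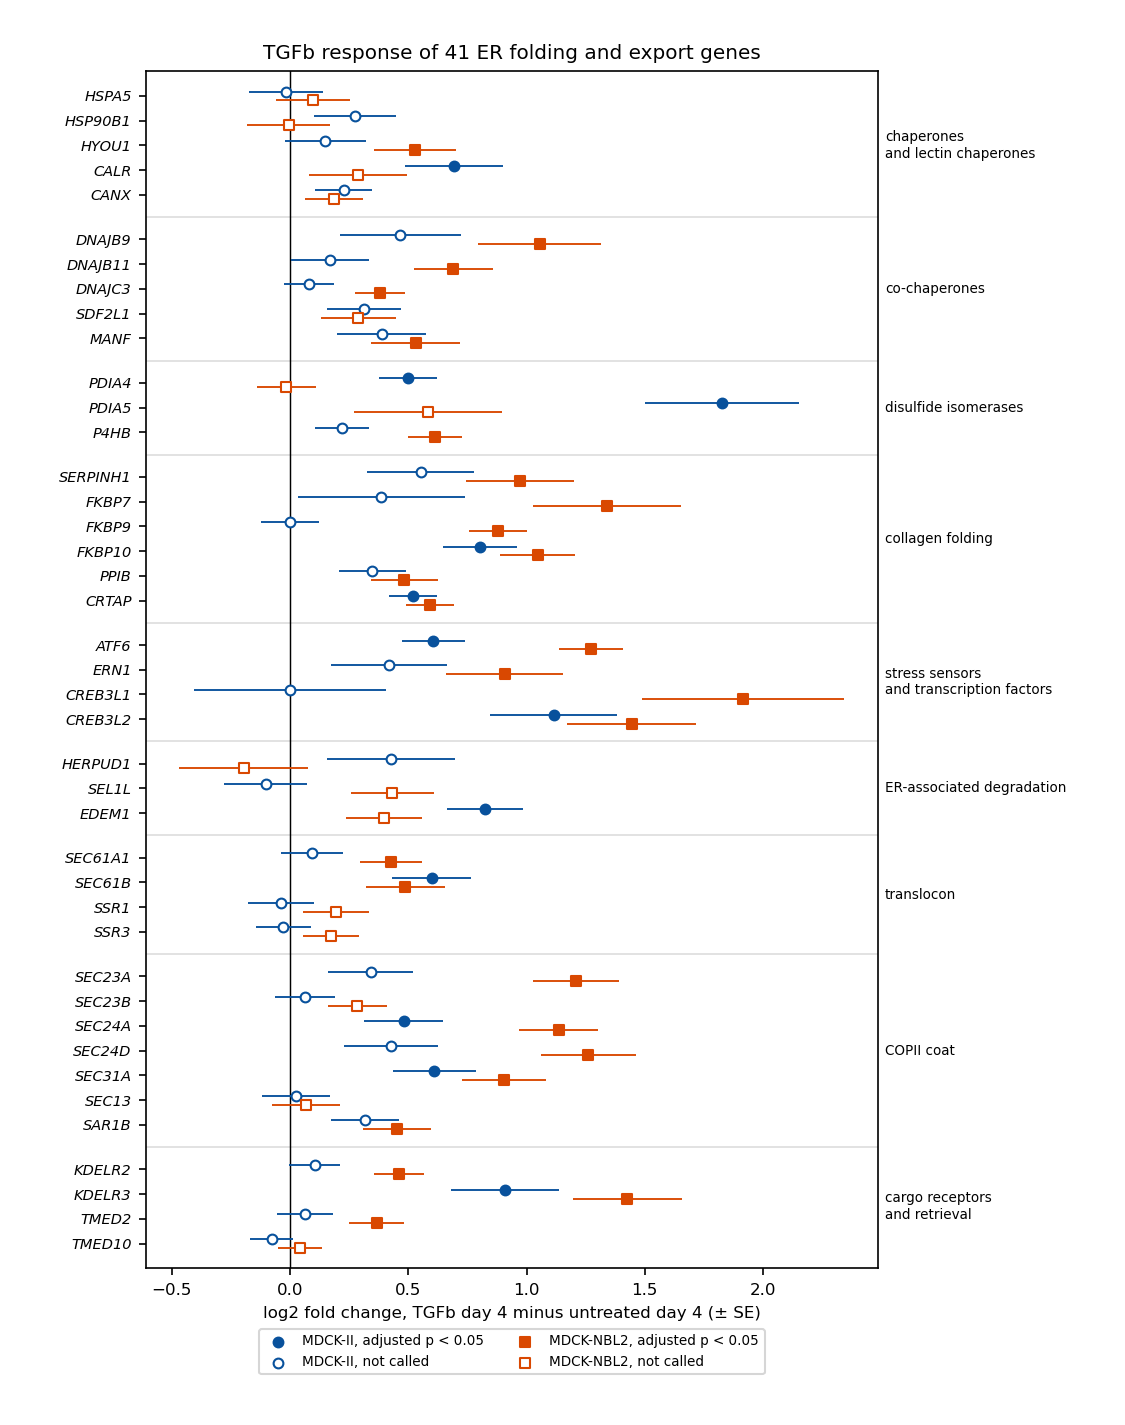
Log2 fold change with TGFb at day 4 against untreated day 4 (points; bars are ± SE) for the 41 genes by role, in MDCK-II (circles) and MDCK-NBL2 (squares), filled where the adjusted p is under 0.05. Filled points are 12 in MDCK-II and 26 in MDCK-NBL2, all to the right of 0, with CREB3L1 at 1.92, CREB3L2 at 1.44 and KDELR3 at 1.43 farthest right in MDCK-NBL2.

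TGFb in MDCK-NBL2, the full EMT comparison, raised 26 of the 41 genes and lowered none. Over all genes 44.3% were called, 21% higher and 23.4% lower, so the share of the 41 genes called higher, 63.4%, is to be read against 21%. The median log2 change was 0.49 over the 41 genes and -0.04 over all genes. The rises covered 6 of 6 collagen folding factors, 4 of 4 stress sensors and transcription factors, 5 of 7 coat genes, 4 of 5 co-chaperones, 3 of 4 receptors, 2 of 4 translocon genes, 1 of 5 chaperones, 1 of 3 isomerases and none of 3 degradation genes. Without untreated replicate 2, 32 genes rose and none fell, against 54.8% of all genes called, 27.1% higher and 27.7% lower, and the coat count became 7 of 7. The other added calls were the chaperone CALR, the isomerase PDIA5, by 1.35, and the degradation genes SEL1L and EDEM1.

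Of the 7 coat genes 5 rose. SEC23A, of the inner coat, was at 117, 230 and 128 CPM in untreated MDCK-NBL2 and at 371, 382 and 348 CPM with TGFb. All 3 treated libraries were above all untreated ones, and replicate 2 was the highest untreated library. The log2 change was 1.21 ± 0.18 (edgeR adjusted p = 7.72e-05). SEC24A, a cargo-binding subunit, was at 51.0, 91.2 and 62.0 CPM untreated and at 160, 142 and 147 CPM with TGFb. It showed the same order, with a change of 1.14 ± 0.17 (adjusted p = 7.31e-05, edgeR). SEC24D, another such subunit whose mutation causes a brittle bone disease in people, was at 59.4, 119 and 82.5 CPM untreated and at 197, 205 and 224 CPM with TGFb. The groups were apart and the change was 1.26 ± 0.20 (adjusted p = 0.000122, edgeR). SEC31A rose by 0.91 ± 0.18 (adjusted p = 0.000572, edgeR), and SAR1B, the GTPase that starts coat assembly, rose by 0.45 ± 0.14 (adjusted p = 0.0164, edgeR). SEC13, the partner of SEC31A in the cage, was at 57.7, 102 and 74.6 CPM untreated and at 76.5, 87.8 and 81.6 CPM with TGFb. Those groups overlapped, and its change of 0.07 ± 0.14 was not called.

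Collagen folding factors moved in the same direction. FKBP9, a prolyl isomerase of the ER, was at 73.3, 90.5 and 68.0 CPM in untreated MDCK-NBL2 and at 147, 146 and 135 CPM with TGFb. The groups were well apart, with a log2 change of 0.88 ± 0.12 (edgeR adjusted p = 4.64e-05). FKBP10 was at 196, 393 and 274 CPM untreated and at 595, 605 and 582 CPM with TGFb, a change of 1.05 ± 0.16 (adjusted p = 7.78e-05, edgeR). Its untreated libraries were spread while its treated ones lay within a narrow range. CRTAP was at 45.6, 44.1 and 47.4 CPM untreated and at 70.4, 62.2 and 73.8 CPM with TGFb, and for this gene replicate 2 did not stand apart. SERPINH1, the collagen chaperone, was at 101, 246 and 118 CPM untreated and at 300.2, 289 and 327 CPM with TGFb. All treated libraries were higher, by 0.97 ± 0.23 (adjusted p = 0.00217, edgeR). PPIB, the prolyl isomerase of the CRTAP complex, rose by 0.48 ± 0.14, and FKBP7, a scarce isomerase at no more than 8.44 CPM in these groups, rose by 1.34 ± 0.31.

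ATF6 was at 68.8, 93.3 and 77.7 CPM in untreated MDCK-NBL2 and at 190, 167 and 222 CPM with TGFb, the smallest adjusted p of the set (1.27 ± 0.13, edgeR adjusted p = 6.68e-06). CREB3L1 was at 16.9, 33.1 and 4.13 CPM untreated and at 83.1, 64.2 and 63.1 CPM with TGFb. The untreated libraries differed widely among themselves but all lay below the treated ones, and the change was 1.92 ± 0.43 (adjusted p = 0.00153, edgeR). CREB3L2 rose by 1.44 ± 0.27 (adjusted p = 0.000419, edgeR), and ERN1 rose by 0.91 ± 0.25 (adjusted p = 0.00602, edgeR).

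Of the 5 chaperones only HYOU1 was called in the fit of all libraries. Without untreated MDCK-NBL2 replicate 2 CALR was also called, with a rise of 0.63 (edgeR adjusted p = 0.00495). HSPA5 was at 525, 441 and 570 CPM in untreated MDCK-NBL2 and at 595, 478 and 569 CPM with TGFb, a change of 0.10 ± 0.16 (edgeR adjusted p = 0.639). HSP90B1 was at 699, 982 and 1223 CPM untreated and at 942, 946 and 1004 CPM with TGFb, with the treated libraries inside the untreated range. CANX, the membrane lectin chaperone, changed by 0.19 ± 0.12, and HYOU1, a nucleotide exchange factor for HSPA5, rose by 0.53 ± 0.17 (adjusted p = 0.0192, edgeR). Among co-chaperones DNAJB9 rose most, from 33.8, 57.1 and 18.1 CPM to 93.2, 72.8 and 62.8 CPM, by 1.05 ± 0.26 (adjusted p = 0.00302, edgeR). DNAJB11 rose by 0.69 ± 0.17, MANF by 0.53 ± 0.19 and DNAJC3 by 0.38 ± 0.10. P4HB, both an isomerase and a subunit of collagen prolyl 4-hydroxylase, rose by 0.61 ± 0.11 (adjusted p = 0.000417, edgeR), while PDIA4 changed by -0.02 ± 0.12. KDELR3 rose by 1.43 ± 0.23, KDELR2 by 0.46 ± 0.11, the cargo receptor TMED2 by 0.37 ± 0.12, SEC61B, whose groups overlapped, by 0.49 ± 0.17 and the channel subunit SEC61A1 by 0.43 ± 0.13.

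Of the 26 calls, 19 held with any library left out in turn. HYOU1, MANF, PPIB, SEC61B, SAR1B and TMED2 lost theirs without untreated replicate 1 (adjusted p 0.0512 to 0.162), and SEC61A1 lost it without untreated replicate 3 (adjusted p = 0.0778, edgeR). MANF, SEC61B and TMED2 also lost it without treated replicate 2, MANF and SAR1B without treated replicate 3, and SEC61B without untreated replicate 3. Without that library HERPUD1 was called lower, by -0.57. A fit of these 2 groups alone called 4 of the 41 genes, all higher, against 4.48% of all genes, 2.06% higher and 2.42% lower. The same fit without untreated replicate 2 called 20, all higher, against 40.2% of all genes, 19.9% higher and 20.3% lower. With no TMM scaling 17 rose and none fell, against 49.1% of all genes called in either direction. The split of that share by direction is not given here, so the 17 are not read as a result about these genes. DNAJC3, HYOU1, KDELR2, MANF, PPIB, SAR1B, SEC61A1, SEC61B and TMED2 were then not called.

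**Figure D3:**
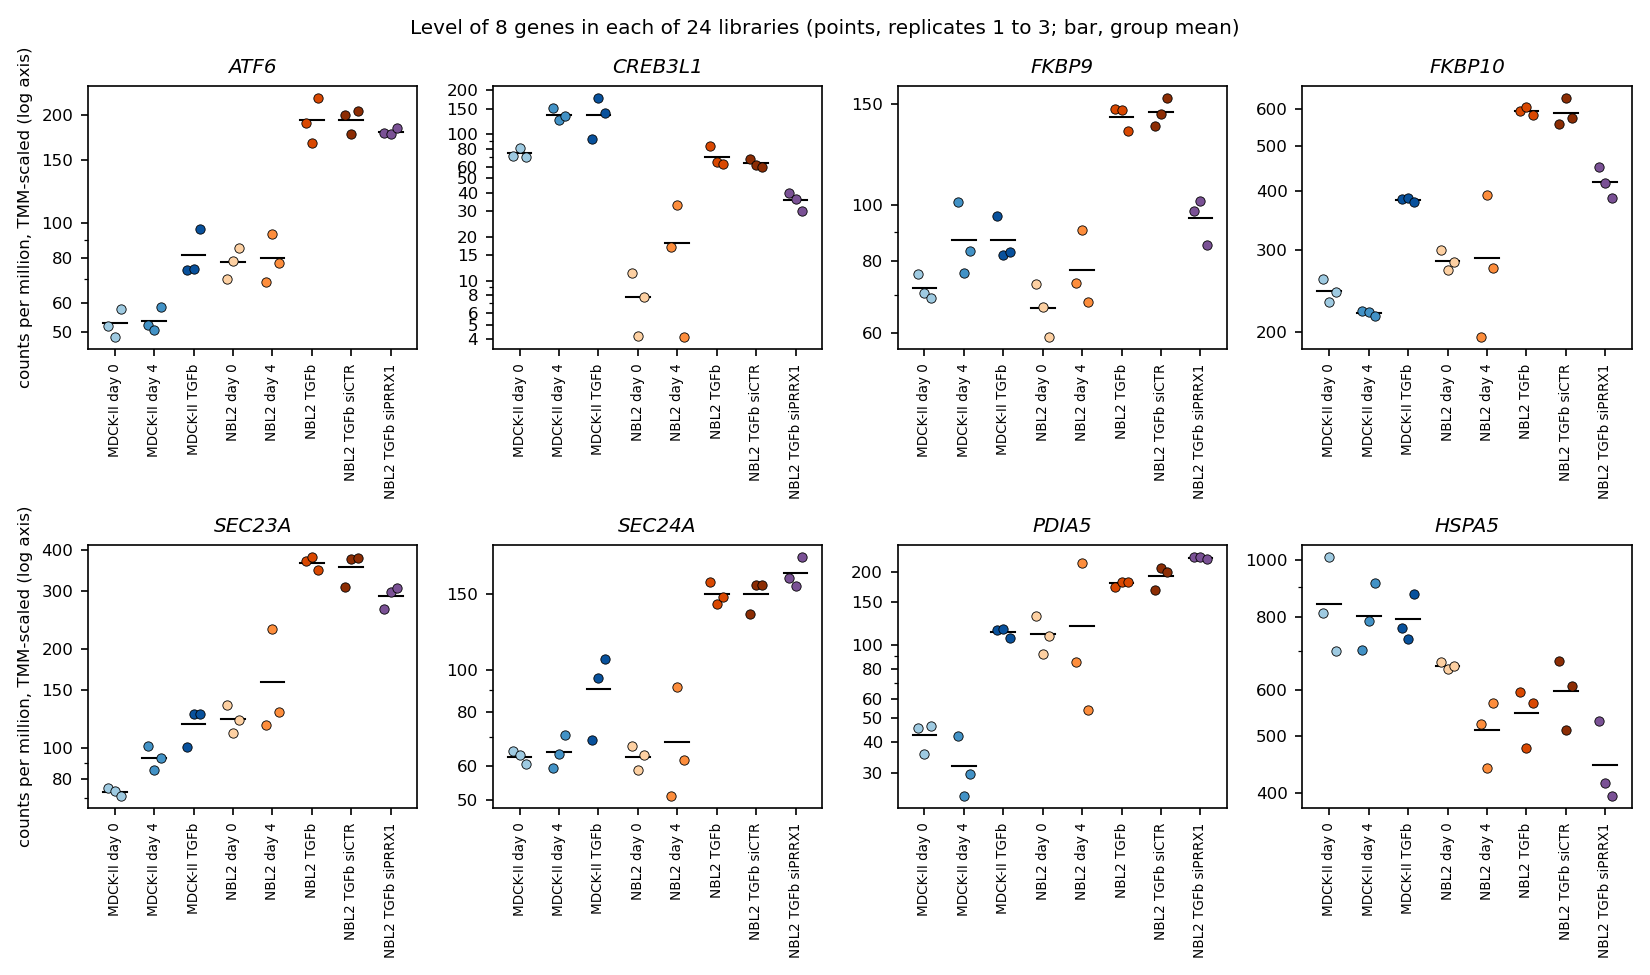
CPM (TMM-scaled, log axes that differ between panels) of 8 genes in each of 24 libraries; points are replicates 1 to 3 from left to right in each of 8 groups and bars are group means. SEC23A lies between 348 and 382 CPM in treated MDCK-NBL2 and between 117 and 230 CPM in its untreated day 4 libraries, whereas HSPA5 overlaps between these groups at 441 to 595 CPM.

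Whether the TGFb response differed between the lines was tested as an interaction, and 3 of the 41 genes passed, all with the larger rise in MDCK-NBL2, against 5.7% of all genes called, 2.52% higher and 3.18% lower. The test uses the same libraries as the comparisons within each line. FKBP9 was not called in MDCK-II, where it was at 101, 76.4 and 83.3 CPM untreated and at 96.0, 82.0 and 83.0 CPM with TGFb, with overlap. The difference of the log2 changes was 0.88 ± 0.17 (edgeR adjusted p = 0.00717). SEC23A was at 101, 85.6 and 93.0 CPM in untreated MDCK-II and at 101, 127 and 127 CPM with TGFb, so these groups overlapped. Its responses differed by 0.87 ± 0.25 (adjusted p = 0.0494, edgeR). The responses of ATF6, which rose in both lines, differed by 0.67 ± 0.19 (adjusted p = 0.043, edgeR). FKBP9 kept its call with any library left out, while SEC23A lost it in 12 such fits (adjusted p 0.0544 to 0.116) and ATF6 in 8 (adjusted p 0.0513 to 0.116). CREB3L1 had the largest difference, 1.92 ± 0.58, and was not called (adjusted p = 0.0575, edgeR).

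The untreated MDCK-NBL2 replicate 2 decided the size of this comparison. Without it, 16 genes responded more in MDCK-NBL2 and none responded less, against 21.1% of all genes called, 9.93% higher and 11.2% lower. The 16 included 4 of 4 stress sensors and transcription factors, 4 of 7 coat genes and 3 of 6 collagen folding factors. SEC23A then differed by 1.24 (edgeR adjusted p = 9.78e-05), SEC24A by 0.93 (edgeR adjusted p = 0.00254), SERPINH1 by 0.92 (edgeR adjusted p = 0.00338) and CREB3L1 by 2.63 (edgeR adjusted p = 0.00147). Without untreated MDCK-NBL2 replicate 3 instead, FKBP9 and CREB3L1 responded more and PDIA5, HERPUD1 and EDEM1 responded less, against 8.31% of all genes called. Without any other library of the 4 groups 1 to 3 genes were called, where the fit of all libraries called 3 against 5.7% of all genes. Without untreated MDCK-NBL2 replicate 1 PDIA4 responded less in MDCK-NBL2, by -0.66 (edgeR adjusted p = 0.0174), while FKBP9 responded more. The shares of all genes in those fits are not given here, so these counts are not read as a result. With no TMM scaling FKBP9 was called higher and PDIA4 lower, against 5.78% of all genes called, and no others of the 41. A fit of the 4 groups alone called none of the 41 genes and 0.395% of all genes, and it called 7 of the 41 at an unadjusted p under 0.05.

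PRRX1 was lower in the siPRRX1 libraries, as their label says. PRRX1 was at 33.9, 7.35 and 3.88 CPM with siCTR and at 1.11, 0.339 and 0 CPM with siPRRX1, so that every siPRRX1 library lay below every siCTR one, with a log2 change of -4.64 ± 1.17 (edgeR adjusted p = 0.0435). Among the 41 genes, 3 fell and none rose, against 2% of all genes called, 0.81% higher and 1.19% lower. The median log2 change was -0.15 over the 41 genes. The median over all genes is not given here, so the -0.15 is not read as a result about these genes. The 41 genes held 1.13%, 1.11% and 1.08% of all counts with siPRRX1 and 1.12%, 1.15% and 1.15% with siCTR, with overlap. Without TMM scaling the changes of FKBP9, SSR3 and CRTAP were -0.48, -0.47 and -0.38, smaller falls than those given below.

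FKBP9 was at 137, 144 and 154 CPM with siCTR and at 97.9, 102 and 85.3 CPM with siPRRX1, a log2 change of -0.61 ± 0.12 (edgeR adjusted p = 0.0127). CRTAP was at 77.9, 70.5 and 75.2 CPM with siCTR and at 53.3, 56.5 and 46.5 CPM with siPRRX1, a change of -0.52 ± 0.10 (adjusted p = 0.0102, edgeR). SSR3, a subunit of the TRAP complex that assists the translocon, was at 139, 162 and 159 CPM with siCTR and at 101, 107 and 96.1 CPM with siPRRX1, a change of -0.60 ± 0.12 (adjusted p = 0.0102, edgeR). For all 3 genes the groups did not overlap, which is not read as added support, as they were chosen by adjusted p. SSR3 was not called for TGFb alone, with 128, 149 and 139 CPM. All 3 calls were lost without siCTR replicate 3 or without siPRRX1 replicate 3, at edgeR adjusted p of 0.0516 to 0.117. CRTAP also lost its call without siCTR replicate 1, at 0.0577, and with no TMM scaling. Without untreated MDCK-NBL2 day 4 replicate 2, which is in neither group, 4 genes were called. FKBP10 was then added, by -0.49 (edgeR adjusted p = 0.00842), and the share of all genes called in that fit is not given here.

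Same-numbered siCTR and siPRRX1 libraries deviated together, and the library numbers fell into the same series for same-numbered libraries of both groups. With the replicate number as a block in a fit of these 2 groups, 17 of the 41 genes fell and 1 rose, against 22.5% of all genes called, 10.3% higher and 12.2% lower. CREB3L1, at 67.7, 62.1 and 60.0 CPM with siCTR and at 40.0, 36.0 and 30.0 CPM with siPRRX1, had the smallest adjusted p (-0.83 ± 0.08, edgeR adjusted p = 0.000278). FKBP10 fell by 0.49 ± 0.08 on the log2 scale, HSPA5 by 0.41 ± 0.08, SERPINH1 by 0.37 ± 0.07, KDELR3 by 0.37 ± 0.09, SEC13 by 0.34 ± 0.08 and SEC23A by 0.28 ± 0.06. PDIA5 was the gene that rose, by 0.27 ± 0.08 (edgeR adjusted p = 0.0338). ATF6, at 199, 176 and 204 CPM with siCTR and at 178, 176 and 184 CPM with siPRRX1, was not called in either fit, nor were CREB3L2 and SEC24A. With siPRRX1 the collagen folding factors held 10.2%, 10.7% and 9.90% of the 41 genes' counts, against 12.3%, 12.3% and 11.6% with siCTR. There were 7.57, 6.62 and 6.40 matrix counts per count of the 41 genes with siPRRX1 and 8.45, 8.05 and 7.62 with siCTR.

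**Figure D4:**
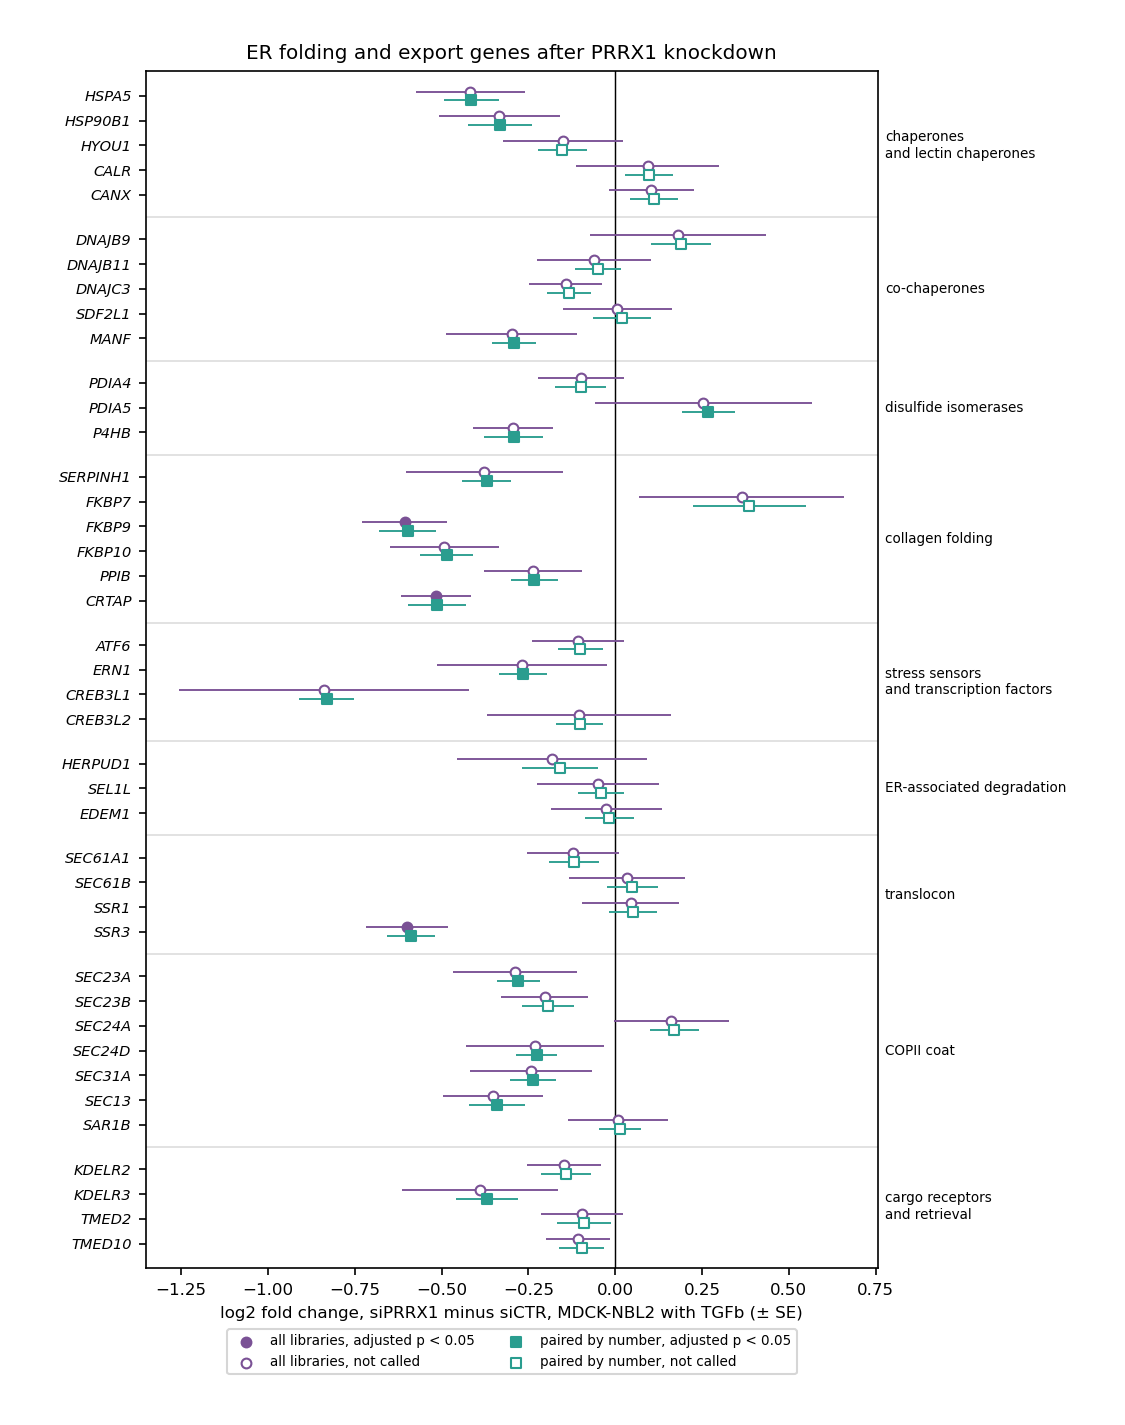
Log2 fold change of siPRRX1 against siCTR in TGFb-treated MDCK-NBL2 (points; bars are ± SE) for the 41 genes by role, in the fit of all libraries (circles) and in the fit of the 2 groups with the replicate number as a block (squares), filled where the adjusted p is under 0.05. The estimates nearly coincide, from -0.84 for CREB3L1 to 0.36 for FKBP7 in the fit of all libraries, while 3 circles and 18 squares are filled.

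The control siRNA itself was compared with TGFb alone in MDCK-NBL2, and none of the 41 genes and 0% of all genes were called by edgeR, with 0 of the 41 genes and 212 of all genes at an unadjusted p under 0.05. DESeq2 called none of the 41 genes. The summed level was 13158 to 13397 CPM with siCTR and 12298 to 12500 CPM without, and SEC23A was at 310, 377 and 378 CPM with siCTR. Same-numbered libraries of these groups lay in opposite library number series, so transfection and series are partly mixed in this comparison.

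Treated MDCK-NBL2 was also set against day 0, a comparison that shares its treated libraries with the one above but not its untreated day 4 group. In it 25 genes rose and 2 fell, against 58.2% of all genes called, 31.2% higher and 27.1% lower. The 6 rises with the smallest adjusted p were ATF6 by 1.31 ± 0.13, FKBP9 by 1.10 ± 0.12, SEC23A by 1.58 ± 0.18, SEC24A by 1.25 ± 0.17, CREB3L1 by 3.21 ± 0.46 and FKBP10 by 1.06 ± 0.16. All 6 collagen folding factors, all 4 stress sensors and transcription factors and all 3 degradation genes rose. HSP90B1, at 1265, 1298 and 1682 CPM at day 0, fell by 0.55 ± 0.17 on the log2 scale, and PDIA4 fell by 0.36 ± 0.12; both calls were lost without day 0 replicate 3 (adjusted p 0.069 and 0.0971, edgeR). PPIB, SEC61A1, SSR3 and TMED10, which rose, also lost their calls without single libraries. Without TMM scaling 17 genes rose and 10 fell, against 60.7% of all genes called, 18.5% higher and 42.3% lower. PPIB and CRTAP were then not called (edgeR adjusted p = 0.797 and 0.185), which left 4 of 6 collagen folding factors. Of the 6 rises named, all stayed called without TMM scaling, and HSPA5, MANF, SDF2L1, HYOU1, CALR, CANX, SSR1 and SEC23B were then among those that fell.

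Some genes differed between days without TGFb. From day 0 to untreated day 4 in MDCK-II, 2 genes rose and 5 fell, against 9.81% of all genes called, 5.76% higher and 4.05% lower. Of the degradation genes SEL1L rose by 0.79 ± 0.18 and HERPUD1 by 0.97 ± 0.28. PDIA4 by 0.69 ± 0.12, HSP90B1 by 0.73 ± 0.17, CALR by 0.81 ± 0.21, MANF by 0.65 ± 0.19 and CRTAP by 0.36 ± 0.10 fell on the log2 scale. PDIA4 kept its call with any library left out. Without the library that stood apart in MDCK-NBL2, 4 rose and 9 fell, against 16.5% of all genes called. Without untreated day 4 replicate 1, 2 fell and none rose, against 4.81% of all genes called. Without day 0 replicate 1 or 2 or day 4 replicate 3, 3 or 4 genes were called, against 4.05%, 4.23% and 7.25% of all genes.

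In MDCK-NBL2, untreated day 4 against day 0 gave 3 rises and 6 falls, against 17.7% of all genes called, 12.4% higher and 5.26% lower. HERPUD1, a component of the degradation complex, was at 40.1, 30.5 and 26.9 CPM at day 0 and at 139, 124 and 41.1 CPM at day 4. Its day 4 libraries differed widely but were all higher, by 1.64 ± 0.28 (edgeR adjusted p = 0.00284). MANF fell by 0.88 ± 0.19, HYOU1 by 0.73 ± 0.17, CALR by 0.61 ± 0.21, HSP90B1 by 0.55 ± 0.17, DNAJB11 by 0.51 ± 0.17 and SDF2L1 by 0.50 ± 0.16 on the log2 scale, while SEL1L rose by 0.58 ± 0.18 and CREB3L1 by 1.29 ± 0.44. HERPUD1, MANF and HYOU1 kept their calls with any library left out. Without untreated day 4 replicate 2, 1 gene rose and 10 fell, against 14.6% of all genes called. Without day 4 replicate 3, 7 rose and 8 fell, against 41.7% of all genes called. Without day 4 replicate 1, 1 rose and 2 fell, against 8.15% of all genes called. Without any 1 of the day 0 libraries 4 or 5 genes were called, against 5.8% to 10.1% of all genes. With no TMM scaling, which shifted the median change of all genes by -0.11, 1 rose and 12 fell, against 17.7% of all genes called. The TGFb comparisons within each line use these same untreated day 4 libraries as their control.

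At day 0 the lines differed in 11 of the 41 genes, with 9 higher and 2 lower in MDCK-NBL2, against 28.5% of all genes called, 14.8% higher and 13.8% lower. CREB3L1 was at 71.6, 81.1 and 70.4 CPM in MDCK-II and at 11.2, 4.20 and 7.68 CPM in MDCK-NBL2, a log2 difference of -3.30 ± 0.46 (edgeR adjusted p = 1.9e-05). Its level in treated MDCK-NBL2, 63.1 to 83.1 CPM, spanned that of MDCK-II at day 0. Higher in MDCK-NBL2 were the cargo receptor TMED10 by 0.61 ± 0.09, SEC61B by 1.05 ± 0.17, SEC23B by 0.68 ± 0.13, PDIA5 by 1.38 ± 0.32, ATF6 by 0.57 ± 0.13 and SEC23A by 0.74 ± 0.18. SEL1L, ERN1 and FKBP7 were also higher, and DNAJC3 was lower, at -0.39 ± 0.10. ERN1, FKBP7 and DNAJC3 lost their calls without single libraries (edgeR adjusted p 0.0503 to 0.151). Without untreated MDCK-NBL2 day 4 replicate 2, which is in neither group, 15 genes were called. SERPINH1, CREB3L2, SEC31A and KDELR2 were then added as lower in MDCK-NBL2. The share of all genes called in that fit is not given here.

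A wider list of 104 tested genes of the same pathway, without the 41, served for comparison. With TGFb in MDCK-II 21 of them rose and 2 fell, where 11.8% of all genes were called higher and 9.27% lower. In MDCK-NBL2 56 rose and 5 fell, where 21% of all genes were called higher and 23.4% lower. In MDCK-NBL2 the rises covered 4 of 6 further collagen folding genes, 8 of 12 further coat and exit site genes and 10 of 14 further degradation genes. MIA3 (TANGO1), which loads bulky cargo such as procollagen into COPII carriers, rose by 1.29 ± 0.13 on the log2 scale (edgeR adjusted p = 5.4e-06), and its responses differed between the lines by 0.95 ± 0.18 (adjusted p = 0.0068, edgeR). P3H2, a prolyl 3-hydroxylase, rose by 2.17 ± 0.29 in MDCK-II and by 2.46 ± 0.29 in MDCK-NBL2. SPCS2, of the signal peptidase, fell by 0.58 ± 0.09 in MDCK-NBL2, and ERO1A, which reoxidises the isomerases, fell by 1.32 ± 0.29 in MDCK-II. With siPRRX1 3 of the 104 fell, or 2.88%. Over all genes 2% were called, 0.81% higher and 1.19% lower. The 3 genes are few, and these shares were not compared by a test. SPCS1 was among the 3 and fell by 0.55 ± 0.12.

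The matrix list had the larger median changes. Of 68 tested matrix genes, 31 rose and none fell in MDCK-II, with a median log2 change of 1.25. Over all genes 11.8% were called higher and 9.27% lower there. In MDCK-NBL2 41 rose and 4 fell, with a median of 1.31, or 2.27 without untreated replicate 2. Over all genes 21% were called higher and 23.4% lower there. The list held 91 genes, and the filter keeps a gene with enough counts in the treated libraries alone. Its part in these medians was not tested. FBN1, the fibrillin of microfibrils, rose by 5.43 ± 0.70 in MDCK-NBL2 (edgeR adjusted p = 3.85e-05), and VCAN, a large proteoglycan, rose by 3.74 ± 0.44 in MDCK-II (adjusted p = 3.05e-05, edgeR). With siPRRX1 VCAN fell by 1.92 ± 0.40 (adjusted p = 0.0167, edgeR) and MATN3 by 3.15 ± 0.69 (adjusted p = 0.0206, edgeR) on the log2 scale.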

How the data were processed

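Whole-number counts per gene were deposited by the authors for 24 libraries in 1 table, with no normalization; genes were named by the symbols in it. The submitters' processing notes name FastQC, STAR 2.5.3a, RSEM 1.3.0 and the dog build CanFam3.1; what each did, the annotation, the strand setting and any rounding were not given in the sources used here. Total counts of 6134929 to 27567296 set the precision. Libraries were grouped by their labels; the labelled TGFb dose has a doubtful unit and is left out.

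Group means were compared by the quasi-likelihood test of edgeR 4.0.16 (R 4.3.3) over all 24 libraries (16 residual degrees of freedom), with TMM scaling and filterByExpr (minimum count 10, minimum total 15). P-values were adjusted by Benjamini-Hochberg over all 12466 genes, and an adjusted p under 0.05 was called. The SE is the size of the log2 change over the square root of F. The code was tested on simulated data. Same-numbered libraries were taken as paired where every correlation of their deviations from the group means was over 0.1: in MDCK-II day 4 (0.421, 0.251 and 0.295) and siPRRX1 against siCTR (0.343, 0.189 and 0.164), a pairing seen in the data and not stated by the labels.

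The genes and lists were chosen with earlier results of these data known. Values per library were given for the called genes with the 6 smallest adjusted p per direction in each of the first 4 comparisons and for genes whose response differed between lines; folds were given for up to 4 called genes per role and direction, for up to 6 in the other comparisons, and for PRRX1 and up to 4 genes per direction of the matrix and wider secretory lists. Values of other genes were added after they were seen. No promoter or protein sequence was analysed here. Alternatives used DESeq2 1.42.0, other filters and scaling, a replicate block, the library number series, subsets of groups and libraries left out.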

Additional observations from a re-analysis of the deposited data

Results flagged for a closer look

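The TGFb response of 3 of the 41 genes differed between MDCK-NBL2 and MDCK-II in the test of the difference itself, with a larger rise in MDCK-NBL2. The log2 changes of FKBP9 differed by 0.88, those of ATF6 by 0.67 and those of SEC23A by 0.87 (MDCK-NBL2 minus MDCK-II, 3 libraries per group, edgeR interaction, adjusted p of 0.00717, 0.043 and 0.0494).
That is 7.32% of the 41 genes, near the 5.7% of all genes called in either direction in the same test. All 3 had the larger rise in MDCK-NBL2, where 2.52% of all genes were called higher and 3.18% lower. The shares were not compared by a test. The calls of ATF6 and SEC23A were lost when single libraries were left out, and a fit of the 4 groups alone called none of the 3.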

How the results depend on the processing

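Counts of called genes among the 41 varied with the samples in the fit, and so did the share of all genes called. For TGFb in MDCK-II 12 calls became 19 in the fit of the 2 groups with the replicate block. Over all genes the share called there went from 21.1% to 28.4%. For TGFb in MDCK-NBL2 it went from 44.3% to 4.48% in the fit of the 2 groups. For TGFb in MDCK-NBL2 26 became 4 in the fit of the 2 groups, 0 there with the replicate block (16 at an unadjusted p under 0.05), 17 at a 1.5-fold minimum and 17 with no TMM scaling. For the difference between lines 3 became 6 by the DESeq2 Wald test, 1 with no filter, 1 with the library number series as a term, 0 in the fit of the groups with or without the block, and 10 in that fit without untreated MDCK-NBL2 day 4 replicate 2. The 6 by DESeq2 included PDIA4, which responded less in MDCK-NBL2, by -0.51 (DESeq2 adjusted p = 0.0327). CREB3L1 and SEC24D, also added there, responded more. For siPRRX1 3 became 7 in the fit of the 2 groups and 18 with the block. Over all genes 2% were called in the fit of all libraries and 22.5% with the block. For day 0 to untreated day 4, 7 became 4 in MDCK-II with the block, and 9 in MDCK-NBL2 became 4 with no filter, 5 at a 1.5-fold minimum and 0 in each fit of the 2 groups, with or without the block or replicate 2. For the lines at day 0, 11 became 17 in the fit of the 2 groups and 20 with the block. With 1 library left out in turn the counts ran from 7 to 15 for TGFb in MDCK-II, from 21 to 32 in MDCK-NBL2, from 1 to 16 for the difference, from 0 to 4 for siPRRX1, from 22 to 28 for treated MDCK-NBL2 against day 0, from 2 to 13 and from 3 to 15 for time in MDCK-II and MDCK-NBL2, and from 9 to 15 for the lines at day 0. Without untreated MDCK-NBL2 day 4 replicate 2, which gave the 32 and the 16, 54.8% and 21.1% of all genes were called. A count given here without its share cannot be told apart from a change over all genes. For treated MDCK-NBL2 against day 0, SEC61A1, SSR3 and TMED10, which rose, changed sign with no TMM scaling, to -0.035, -0.059 and -0.13, and were then not called. The fits of few groups have fewer residual degrees of freedom; the other causes were not tested. Where the numbers did not pair the libraries the block is only a hint: 19 of 24 libraries were closest to their own number. The settings with no TMM scaling and with the groups alone without replicate 2 were chosen after seeing the data. A promoter motif count planned for these genes was not run. Counts cover 3 libraries a group, and at the lowest depth scarce genes such as FKBP7 and PRRX1 rest on few reads.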
